A study of Mus musculus with 6 samples.

Results

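The formation of meiotic double-strand breaks was followed through 7 mouse genes, Spo11, Mei1, Mei4, Rec114, Ankrd31, Prdm9 and Zcwpw1, out of 54532 genes measured by RNA sequencing. They were chosen by name for their known roles, and all 7 were found by symbol. The RNA came from adult testis cells of about postnatal day 80 that were purified by STA-PUT and are labelled as pachytene spermatocytes. STA-PUT separates cells by sedimentation at unit gravity. EE_KO mice carried the MAPS knockout and, per the labels, overexpressed MAPS in that background (MAPS EE;MAPS KO), KO mice carried the knockout alone (MAPS KO), and WT mice carried neither. Each group had 2 libraries made from 1.3 µg of total RNA, and purification used 3 mice of the same genotype per group over 2 independent experiments. The part of the gene that is deleted, what drives the overexpression and whether mice were pooled into a library are unknown from the labels.

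Meiotic recombination begins when the topoisomerase-like protein SPO11 cuts both DNA strands at many sites in leptotene spermatocytes. In mouse, REC114, MEI4, MEI1 and ANKRD31 are needed for cutting at normal number, time or place, and they assemble on the chromosome axis before the breaks are made. PRDM9 is a zinc finger histone methyltransferase that marks the hotspots where breaks form, and ZCWPW1 reads those marks. By pachytene most autosomal breaks are under repair or repaired, so break formation is known as a matter of the stages before it.

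Levels are FPKM, the fragments per kilobase of exon, scaled by a size for each library, that the authors deposited, and are given as the mean ± SD of 2 libraries. Log2 changes were computed on log2(FPKM + 1), are given with limma's standard error (SE), and were called at an adjusted p below 0.05, by the Benjamini-Hochberg method across the 15368 genes that were tested. Nothing says that the libraries of a group are separate animals, so a p-value here reflects the spread of these libraries, which may be technical. In bulk RNA, fewer cells of a type and less RNA per cell cannot be told apart.

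The libraries held 14178387 to 16565238 recovered reads on genes. The library size that the FPKM imply was 1.46e+07 and 1.50e+07 in EE_KO, 1.80e+07 and 1.74e+07 in KO and 1.40e+07 and 1.51e+07 in WT. It was above the reads on genes in both KO libraries and below them in every EE_KO and WT library. KO values are thus lower against the other groups than they would be if scaled by reads on genes. The gene that encodes MAPS, 1700102P08Rik, stood at 108.6 and 82.2 FPKM in EE_KO, at 7.97 and 10.1 FPKM in KO and at 157.0 and 150.2 FPKM in WT. KO was at 5.88% of WT (log2 change -3.95, limma adjusted p = 2.75e-07), the direction that the knockout label gives. The mid to late pachytene markers described below also fell in KO, with a median log2 change of -4.97. A lost gene and fewer cells of that stage therefore cannot be told apart from this level. EE_KO was at 62.1% of WT (log2 change -0.70, limma adjusted p = 0.254) and 3.26 above KO on the log2 scale (limma adjusted p = 7.57e-07), so the transcript was higher than in KO but in no EE_KO library above WT, and the overexpression in the label does not show against WT. The pachytene label did not hold equally well in all groups. The summed FPKM of 12 mid to late pachytene markers was 5391 to 5781 in EE_KO, 196 to 227 in KO and 5666 to 6308 in WT. All 12 fell in KO against WT, a comparison in which 38% of all tested genes rose and 48.1% fell. The 12 Sertoli cell markers summed to 270.1 to 503 FPKM in EE_KO, 4125 to 4357 FPKM in KO and 314 to 315 FPKM in WT, and all 12 rose in KO. The 8 Leydig cell markers summed to 84.3 to 177 FPKM in EE_KO, 2142 to 2234 FPKM in KO and 58.0 to 109 FPKM in WT, and all 8 rose in KO. Of the 12 spermatogonial markers, 10 were tested, and 9 of these rose in KO and 1 fell. The 12 summed to 39.0 to 46.4 FPKM in EE_KO, 216 to 254 FPKM in KO and 41.7 to 43.6 FPKM in WT. Only genes with a mean of at least 1 FPKM over the 6 libraries were tested. Zbtb16, Sall4 and Lin28a were below 1 FPKM in every EE_KO and WT library, so they passed only through KO and had to differ. Of those not tested, Gfra1 was lower in KO (0.518 and 0.347 FPKM) than in WT (0.926 and 1.23 FPKM), and Nanos3 was higher. The 10 spermatid markers all fell in KO and summed to 1710 to 2499 FPKM in EE_KO, 16.3 to 17.7 FPKM in KO and 1360 to 2923 FPKM in WT. Tnp1, Acrv1, Catsper3 and Izumo1 were below 1 FPKM in both KO libraries. They passed the filter only through EE_KO and WT and had to differ. Of the 8 leukocyte markers, 5 were tested and all 5 rose. The 8 summed to 4.05 to 4.42 FPKM in EE_KO, 19.4 to 26.3 FPKM in KO and 3.11 to 4.07 FPKM in WT. In WT, C1qa was at 0 in both libraries, and no other marker was at 0 in every library of a group. C1qa, C1qb and Cd14 were below 1 FPKM in every EE_KO and WT library, so they passed only through KO and had to differ. Lyz2 stood at 0.727 and 0.457 FPKM in EE_KO, 9.39 and 5.64 FPKM in KO and 1.25 and 0.853 FPKM in WT. It also reached the filter only through KO. Among the leukocyte markers not tested, Adgre1 overlapped between KO (0.464 and 0.284 FPKM) and WT (0.375 and 0.571 FPKM). Ptprc and Csf1r, also not tested, were higher in KO than in WT. Lhcgr, of the Leydig cell markers, likewise passed only through KO. These lists move with every KO difference below, and their part in those differences was not tested.

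In KO against WT, Spo11 and Ankrd31 fell, while Prdm9, Rec114 and Zcwpw1 rose and Mei1 was not called. Mei4, with few reads in every group, was below the filter of a mean of 1 FPKM over the 6 libraries and was not tested. The 5 calls among 6 tested genes stand beside 86.2% of all tested genes called in this comparison (38% of all tested genes up and 48.1% down), so the number of calls is near the background and carries no result about the 7 genes. Prdm9 and Rec114, with less than 1 FPKM on average in WT, passed the filter only through KO and so had to differ. The KO and WT libraries did not overlap for 6 of the 7 genes, all but Mei1, beside 93.4% of all tested genes, and the EE_KO and KO libraries did not overlap for any of the 7, beside 93.6%.

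**Figure D1:**
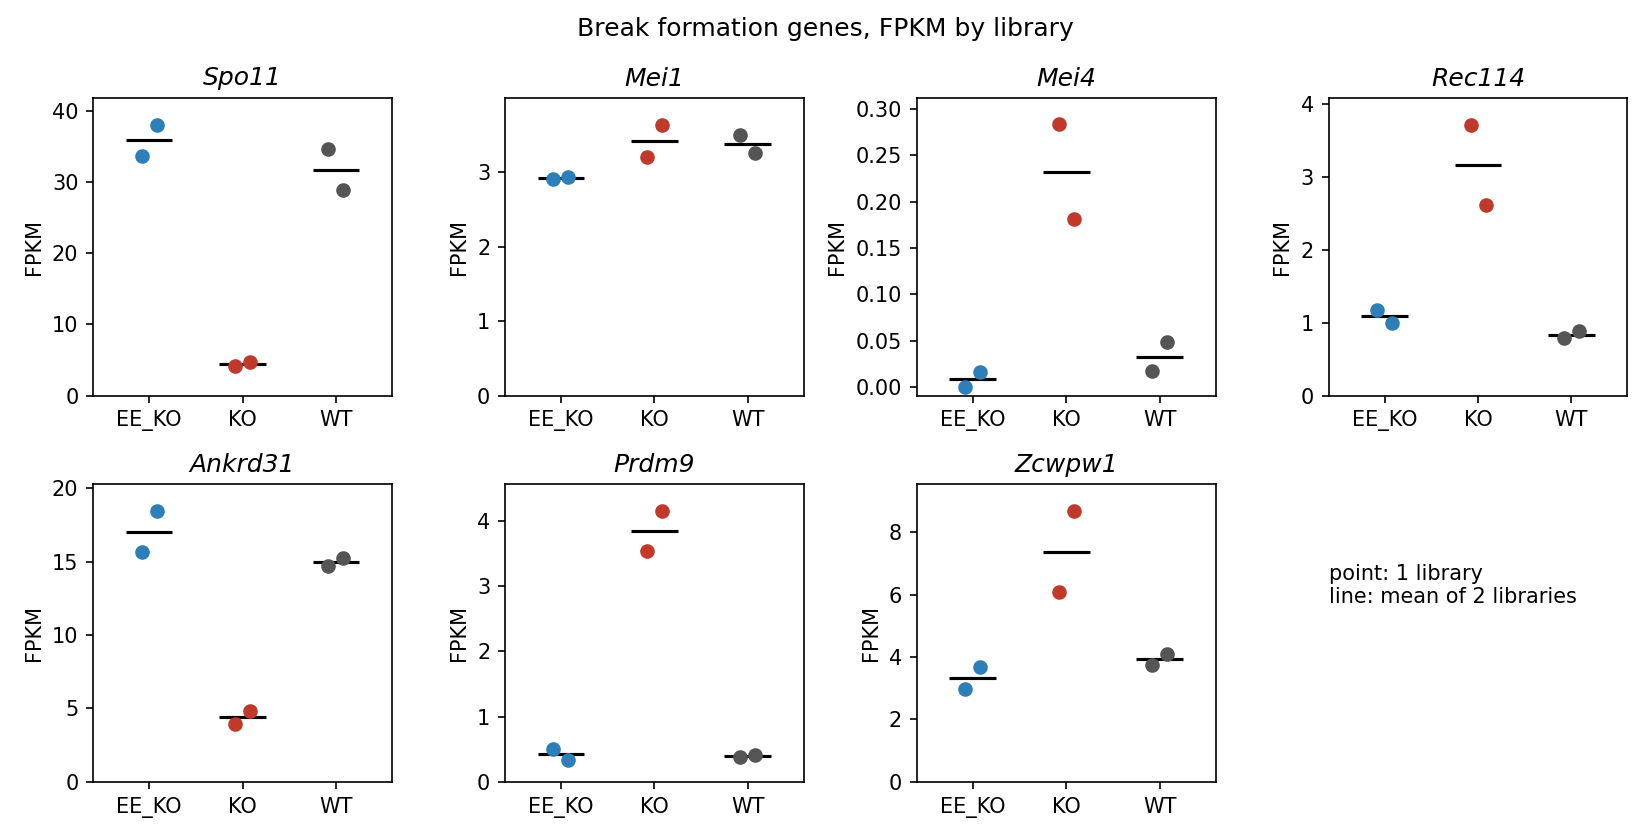
FPKM of the 7 genes in each library, with one panel per gene, EE_KO, KO and WT from left to right, points for the 2 libraries and a horizontal line for their mean, each panel on its own linear axis. Spo11 and Ankrd31 are low in the KO libraries, Prdm9, Rec114, Zcwpw1 and Mei4 are high in them, and Mei1 lies between 2.91 and 3.63 FPKM in all 6 libraries.

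Spo11 (ENSMUSG00000005883, GRCm38 chromosome 2, 172977700 to 172993576, plus strand) encodes the subunit that cuts the DNA. It stood at 33.7 and 38.0 FPKM in the EE_KO libraries, 4.13 and 4.79 FPKM in the KO libraries and 34.6 and 28.8 FPKM in the WT libraries. Both KO libraries lay far below all 4 others, and EE_KO and WT overlapped. The KO mean of 4.46 ± 0.463 FPKM was 14.1% of the WT mean of 31.7 ± 4.08 FPKM, 7.11-fold lower. On the log2 scale the change was -2.58 (SE 0.14, limma adjusted p = 1.00e-06), the largest in size among the 6 genes tested. Against KO, EE_KO was 2.75 higher (limma adjusted p = 7.80e-07), with a mean of 35.8 ± 3.04 FPKM. Spo11 was above 87.8% of tested genes in EE_KO, 47.2% in KO and 85.6% in WT. Spo11 is known in mouse to make an early and a late splice form, which these gene-level values do not separate.

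Ankrd31 (ENSMUSG00000109561, chromosome 13, 96748272 to 96910039, plus strand) encodes a REC114 partner that in mouse is needed for breaks in the pseudoautosomal region of the X and Y chromosomes. It was the other member that fell. Its FPKM was 15.7 and 18.4 in EE_KO, 3.96 and 4.83 in KO and 14.7 and 15.2 in WT, so that the KO libraries again lay below the rest. KO averaged 4.40 ± 0.614 FPKM, or 29.4% of the WT mean of 14.97 ± 0.363 FPKM, with a log2 change of -1.57 (SE 0.14, limma adjusted p = 1.35e-05). EE_KO, at 17.0 ± 1.96 FPKM, was 1.74 above KO on the log2 scale (limma adjusted p = 8.22e-06).

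Rec114 (ENSMUSG00000074269, chromosome 9, 58652850 to 58743964, minus strand) encodes a core factor of the complex that includes MEI4, and moved the other way. It had 1.18 and 0.994 FPKM in EE_KO (22 and 19 reads), 3.70 and 2.61 FPKM in KO (85 and 58 reads) and 0.783 and 0.880 FPKM in WT (14 and 17 reads). The KO libraries were the highest, on few reads. The KO mean of 3.16 ± 0.771 FPKM was 3.80-fold the WT mean of 0.831 ± 0.0682 FPKM, a log2 change of 1.17 (SE 0.17, limma adjusted p = 0.000307), and EE_KO was 0.99 lower than KO (log2 change -0.99, limma adjusted p = 0.000875). Of its 1277 exon bases, 344 or 26.9% overlap exons of Nptn on the opposite strand. Nptn stood at 3.28 and 3.05 FPKM in EE_KO, 18.4 and 17.3 FPKM in KO and 2.35 and 3.06 FPKM in WT. The sources used here do not say whether the counting used strand, so reads of Rec114 and Nptn may be mixed, and the part of Nptn in the Rec114 difference was not tested.

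Mei4 (ENSMUSG00000043289, chromosome 9, 81863670 to 82206007, plus strand) encodes the partner of REC114 on the axis. It had 0 and 1 read in EE_KO, 21 and 13 reads in KO and 1 and 3 reads in WT. In FPKM this was 0 and 0.0162 in EE_KO, 0.284 and 0.182 in KO and 0.0173 and 0.0481 in WT, and 3 counts, the limit that a count of 0 allows, stand for 0.0497 FPKM in the first EE_KO library. The 34 KO reads against 4 WT reads gave a ratio of read rates of 7.01 (exact 95% interval 2.50 to 27.2), and 1 EE_KO read against 4 WT reads gave 0.246 (0.00500 to 2.49). The intervals cover counting error only. Both KO libraries were above the other 4, at a level that places Mei4 last of the 7 genes in every library. Without the filter, Mei4 was called in KO against WT (log2 change 0.25, limma adjusted p = 0.0116), in a fit that called 18908 of 35430 genes. At this level the 1 FPKM added before the log sets the size of the change. By voom without a filter the log2 change was 3.01, where 19927 of 34460 genes were called.

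Mei1 (ENSMUSG00000068117, chromosome 15, 82069996 to 82126814, plus strand) encodes a protein without which mouse spermatocytes make few breaks. In FPKM it stood at 2.91 and 2.93 FPKM in EE_KO, 3.21 and 3.63 FPKM in KO and 3.50 and 3.26 FPKM in WT. The KO and WT libraries overlapped, and the EE_KO libraries were below both. KO differed from WT by 0.01 on the log2 scale (95% interval -0.32 to 0.34, limma adjusted p = 0.940). This value depended on the scaling, at 0.42 with each library scaled to the same FPKM sum (limma adjusted p = 0.0553) and 0.41 by voom on recovered reads (adjusted p = 0.0683), still not called. EE_KO differed from KO by -0.17 (limma adjusted p = 0.287), and the fall was called when each library was scaled to the same FPKM sum (log2 change -0.58, limma adjusted p = 0.0168). Over all genes the FPKM summed to 315680 and 325048 in EE_KO, 251584 and 232716 in KO and 335071 and 321463 in WT.

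Prdm9 (ENSMUSG00000051977, chromosome 17, 15543079 to 15564354, minus strand), which sets where breaks form, had the largest rise of the 6 genes tested. It stood at 0.507 and 0.341 FPKM in EE_KO (32 and 22 reads), 3.53 and 4.14 FPKM in KO (273 and 310 reads) and 0.381 and 0.414 FPKM in WT (23 and 27 reads). The 2 KO libraries stood apart, and EE_KO and WT overlapped. KO averaged 3.83 ± 0.435 FPKM, 9.64-fold the WT mean of 0.398 ± 0.0231 FPKM, and the log2 change was 1.79 (SE 0.15, limma adjusted p = 1.13e-05). EE_KO averaged 0.424 ± 0.117 FPKM, and differed from KO by -1.76 on the log2 scale (limma adjusted p = 1.31e-05). Because 1 FPKM was added before the log, these log2 values are smaller than the ratio of means. Prdm9 was above 2.94% of tested genes in EE_KO, 43.5% in KO and 3.48% in WT.

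Zcwpw1 (ENSMUSG00000037108, chromosome 5, 137787798 to 137822621, plus strand) encodes the reader of the paired H3K4 and H3K36 marks that PRDM9 writes, and in mouse it is known for the repair of breaks rather than for their placement. It had 2.97 and 3.69 FPKM in EE_KO, 6.08 and 8.67 FPKM in KO and 3.75 and 4.11 FPKM in WT. KO was highest in both libraries, which differed from each other more than those of other groups. The KO mean was 7.37 ± 1.83 FPKM and the WT mean 3.93 ± 0.252 FPKM, 1.88-fold, with a log2 change of 0.75 (SE 0.19, limma adjusted p = 0.00558). Without KO replicate 2 the change was 0.52 and was not called (limma adjusted p = 0.0521). EE_KO, at 3.33 ± 0.510 FPKM, was lower than KO (log2 change -0.94, limma adjusted p = 0.00169). Pilra, on the opposite strand, shares 468 of the 5697 exon bases of Zcwpw1 (8.21%) and stood at 0.385 FPKM or less in every library.

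**Figure D2:**
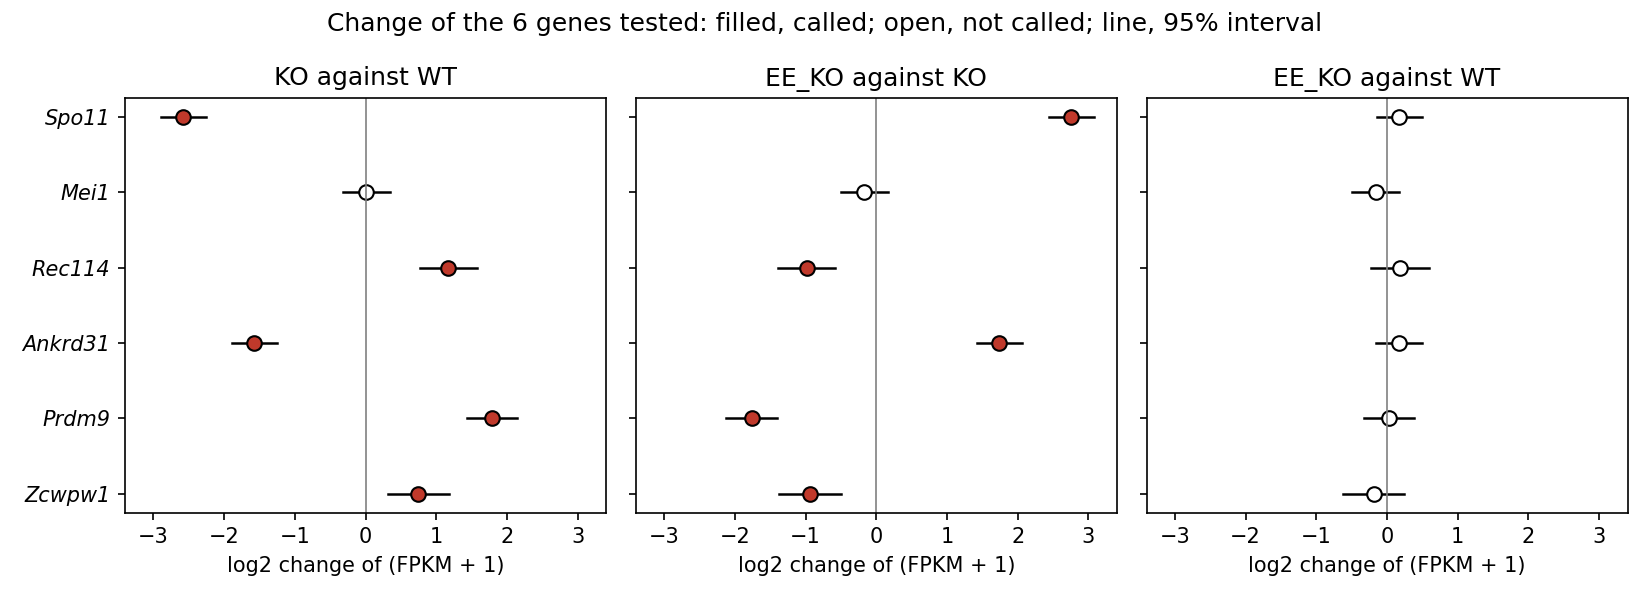
Log2 change of the 6 tested genes in KO against WT, EE_KO against KO and EE_KO against WT, on the log2(FPKM + 1) scale, with points for limma's estimate and lines for its 95% interval, filled where called. Spo11 and Ankrd31 lie below 0 in KO against WT and Rec114, Prdm9 and Zcwpw1 above 0, while all 6 intervals in EE_KO against WT include 0.

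The promoters of 3 members are shown because Prdm9 and Zcwpw1 rose in KO while Ankrd31 fell. RefSeq windows on GRCm38.p6, from 250 bases before to 50 bases after a start, were held for 6 of the 7 genes (8 windows, and none for Spo11), each written 5′ to 3′ on the strand of its gene. Searched on both strands were CNCCTCAG, the motif of STRA8, the retinoic acid induced activator of meiotic entry, then AACNGTC and CAACNG of the MYB family, TGACGTCA (CRE), TTCCCGCC (E2F) and GTTGCCA (RFX). Capitals mark the matches. The windows are Prdm9 chr17:15564305-15564604 on the minus strand, Zcwpw1 chr5:137787552-137787851 and Ankrd31 chr13:96748043-96748342, both on the plus strand.
Prdm9: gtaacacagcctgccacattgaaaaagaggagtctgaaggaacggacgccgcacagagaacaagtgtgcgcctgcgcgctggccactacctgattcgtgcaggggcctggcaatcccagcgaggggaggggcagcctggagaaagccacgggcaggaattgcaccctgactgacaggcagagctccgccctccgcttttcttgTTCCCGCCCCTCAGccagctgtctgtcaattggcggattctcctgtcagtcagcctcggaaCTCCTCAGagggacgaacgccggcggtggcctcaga
Zcwpw1: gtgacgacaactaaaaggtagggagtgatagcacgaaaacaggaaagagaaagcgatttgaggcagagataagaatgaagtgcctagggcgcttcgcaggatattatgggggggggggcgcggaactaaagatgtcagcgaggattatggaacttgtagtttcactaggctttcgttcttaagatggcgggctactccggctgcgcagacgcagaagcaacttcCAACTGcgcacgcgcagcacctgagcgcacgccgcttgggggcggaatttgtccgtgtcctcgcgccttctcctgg
Ankrd31: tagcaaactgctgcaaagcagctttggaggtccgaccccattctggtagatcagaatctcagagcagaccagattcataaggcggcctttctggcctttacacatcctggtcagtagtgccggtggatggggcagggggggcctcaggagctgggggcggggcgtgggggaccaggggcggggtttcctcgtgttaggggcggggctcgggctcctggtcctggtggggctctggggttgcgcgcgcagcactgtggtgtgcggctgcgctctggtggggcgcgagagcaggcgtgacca
The Prdm9 window held TTCCCGCC at -47 and 2 matches to the STRA8 motif, CCCCTCAG at -41 and CTCCTCAG at 15, counted from the start, and the first of these overlaps the E2F match. At least 1 STRA8 match was in 7.94% of the 32851 RefSeq windows and at least 2 were in 0.511%, while TTCCCGCC was in 2.19%. The Zcwpw1 window held CAACTG at -26, a CAACNG match, which 35.0% of windows have. Its other window and the other Prdm9 window each held 1 CAACNG match, and Mei1 held AACAGTC and CAACAG, which overlap (AACNGTC was in 8.01% of windows). Ankrd31, Rec114 and Mei4 held none of the 6 motifs. The windows of Mei1 (chr15:82082226-82082525) and Rec114 (chr9:58741510-58741809) lie inside the gene spans given above and not at their outer starts. A match describes letters and not a bound site.

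The rank of the genes within a library also changed. In all 4 EE_KO and WT libraries the order of FPKM levels was Spo11, Ankrd31, Zcwpw1, Mei1, Rec114, Prdm9 and Mei4, and no neighbours in that order overlapped within a group. In KO, Zcwpw1 came first, followed by Spo11, Ankrd31, Prdm9, Mei1 and Rec114, whose neighbours overlapped in their ranges, and Mei4 came last. The 7 genes together summed to 56.9 and 64.4 FPKM in EE_KO, 24.9 and 28.9 FPKM in KO and 57.7 and 52.8 FPKM in WT. Spo11 made up 59.2 and 59.0% of that sum in EE_KO, 16.6 and 16.6% in KO and 59.9 and 54.6% in WT. Prdm9 made up 0.891 and 0.530% in EE_KO, 14.2 and 14.4% in KO and 0.661 and 0.785% in WT. The cutting subunit was thus the most abundant of these transcripts in EE_KO and WT, whereas in KO no member passed 30.04% of the sum, the value of Zcwpw1 in the second library.

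**Figure D3:**
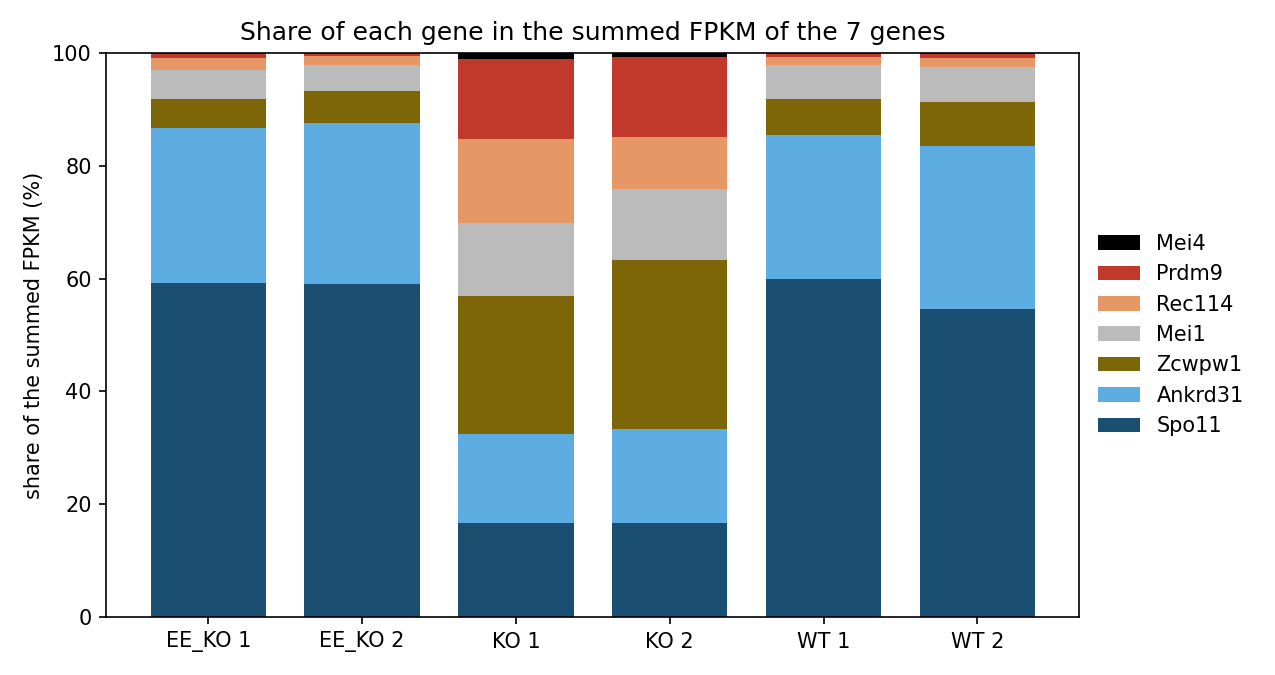
Share of the summed FPKM of the 7 genes that each gene took in each library, in percent, with stacked bars for the libraries of EE_KO, KO and WT from left to right. Spo11 takes 54.6 to 59.9% in EE_KO and WT and 16.6% in both KO libraries, where Zcwpw1, Prdm9, Rec114 and Mei1 each take more than they do in EE_KO and WT.

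Levels of genes of the same early stages stand beside the Prdm9 values. Of 12 early meiotic prophase markers tested, 6 rose and 4 fell in KO against WT, beside 38% of all tested genes up and 48.1% down. Their median log2 change was 0.41 against -0.29 over all genes. Their FPKM summed to 295 to 332 in EE_KO, 182 to 209.6 in KO and 278 to 285 in WT. The list was split. Meioc, which keeps spermatocytes in meiotic prophase, stood at 70.0 and 88.0 FPKM in EE_KO, 18.1 and 20.0 FPKM in KO and 71.0 and 69.7 FPKM in WT, and Smc1b, a meiotic cohesin, at 62.6 and 66.7 FPKM in EE_KO, 19.9 and 24.8 FPKM in KO and 55.7 and 57.1 FPKM in WT. Stra8, in contrast, stood at 2.01 and 2.04 FPKM in EE_KO, 17.6 and 22.3 FPKM in KO and 1.55 and 1.69 FPKM in WT. Prdm9 over Stra8 was 0.253 and 0.167 in EE_KO, 0.200 and 0.185 in KO and 0.247 and 0.246 in WT, so that this ratio in KO lay within the range of EE_KO. Prdm9 over Dmc1, the meiotic recombinase and another marker higher in KO, was 0.190 and 0.157 in EE_KO, 0.319 and 0.314 in KO and 0.176 and 0.164 in WT, highest in KO. The part of these early genes and of the spermatogonial and somatic markers in the Prdm9, Rec114 and Zcwpw1 differences was not tested.

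**Figure D4:**
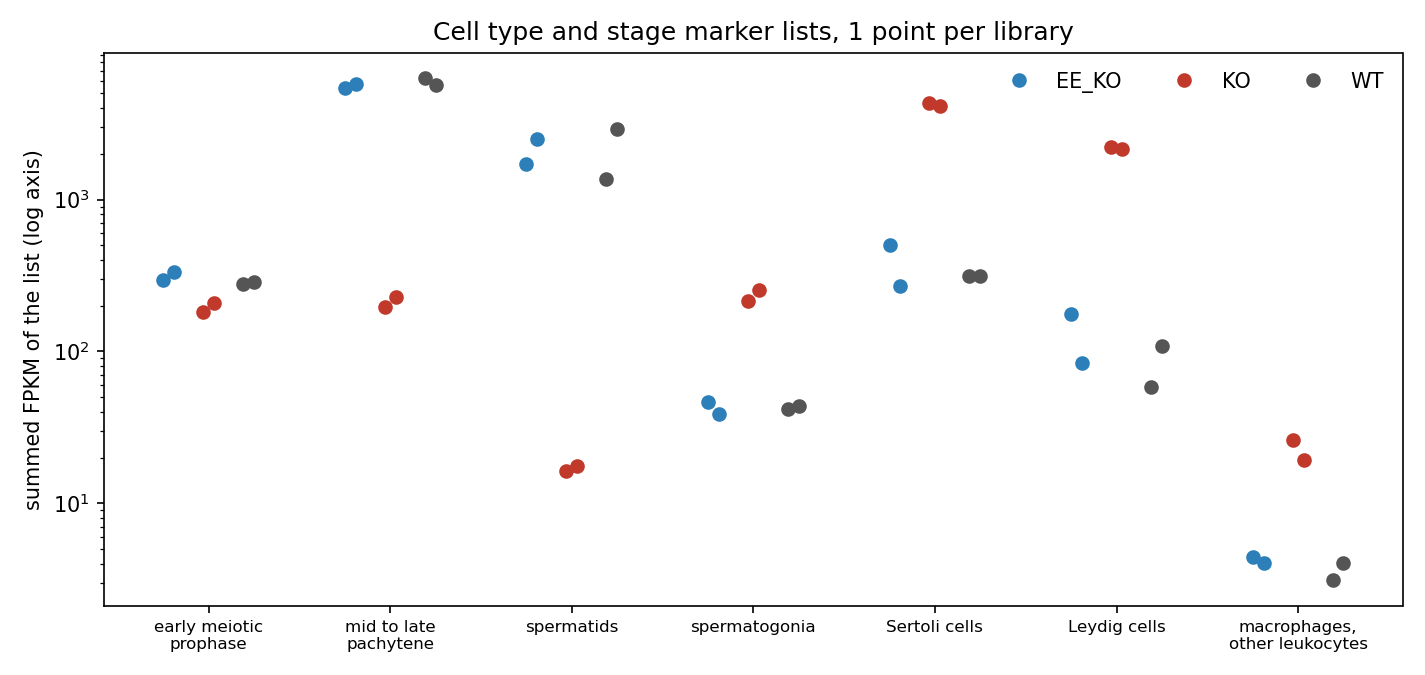
Summed FPKM of the cell type marker lists in each library on a log10 axis, with points for the libraries of EE_KO, KO and WT. The KO libraries are low in mid to late pachytene and spermatid markers and high in Sertoli, Leydig, spermatogonial and leukocyte markers, while the sums of early meiotic prophase markers differ less.

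In EE_KO against WT, none of the 6 tested genes was called by limma and none had an unadjusted p below 0.05, beside 0.0455% of all genes called (0.026% up and 0.0195% down, 7 genes in all, with 1150 at an unadjusted p below 0.05 and 5 called by voom). The adjusted p ran over 0.854 to 0.984. The differences, with 95% intervals, were 0.18 for Spo11 (-0.14 to 0.49), 0.17 for Ankrd31 (-0.15 to 0.50), 0.19 for Rec114 (-0.22 to 0.59), 0.02 for Prdm9 (-0.33 to 0.38), -0.16 for Mei1 (-0.49 to 0.17) and -0.19 for Zcwpw1 (-0.62 to 0.24). The intervals allow differences of that size, so equality is not shown. EE_KO and WT libraries did not overlap for Ankrd31, Rec114, Mei1 and Zcwpw1 among the tested genes, nor for Mei4, beside 36.5% of all tested genes. In EE_KO against KO, where 85.6% of all genes were called (47.8% up and 37.8% down), the 5 genes called were those called in KO against WT, each in the opposite direction. The KO libraries enter both comparisons, so the second is not independent of the first.

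Genes whose pattern over the 6 libraries was nearest to each member, measured as the root mean square (RMS) difference of log2(FPKM + 1) after centring among 12171 protein-coding genes, differed from member to member. For Spo11 they were Ddias (RMS 0.0384) and Thop1 (0.0661), for Ankrd31 Eva1c (0.0493) and Anapc11 (0.0578), and for Mei1 Eif2b2 (0.0217) and Ddx47 (0.0368). For Prdm9 they were Pck2 (0.0347) and Akr1a1 (0.0417), and among those of Rec114 and Zcwpw1 were Med17 (0.0410) and Aldh16a1 (0.0685). None of these 10 genes is on the lists of recombination genes used here. Such likeness is common, since 562 genes lay within 0.25 of Spo11 and 1923 within 0.25 of Mei1.

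Other genes of break formation and control were described through a list of 22 partner genes, all tested. In KO against WT 7 rose, 12 fell and 3 were not called, beside 38% of all tested genes up and 48.1% down, with a median log2 change of -0.59 against -0.29 over all genes. With each library scaled to the same FPKM sum, 8 rose and 8 fell, beside 6827 up and 6408 down of all 15368 tested genes. After quantile normalization 8 rose and 7 fell, beside 6664 up and 6407 down. Over all genes these scalings moved the median log2 change by more than 0.1, to 0.09 and 0.03. In EE_KO against KO, 12 partner genes rose and 8 fell, beside 47.8% of all tested genes up and 37.8% down, and in EE_KO against WT none was called by limma (1, Hormad2, at an unadjusted p below 0.05).

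Among the 9 genes of the break complex and axis, 3 rose and 4 fell in KO, beside 38% of all tested genes up and 48.1% down. Ccdc36, which encodes the axis anchor IHO1, stood at 12.8 and 15.9 FPKM in EE_KO, 2.70 and 4.54 FPKM in KO and 17.0 and 14.0 FPKM in WT, a log2 change of -1.86 in KO against WT (SE 0.21, limma adjusted p = 6.17e-05). Ccdc36 (chromosome 9, 108403611 to 108428484, minus strand) overlaps the span of the MAPS gene (108392805 to 108410934, plus strand), without shared exon bases. Whether the knockout allele reaches Ccdc36 is unknown from the labels, and its part in this fall was not tested. Gm960, which encodes TOPOVIBL, the partner subunit of SPO11, averaged 0.910 ± 0.321 FPKM in EE_KO, 2.11 ± 0.180 FPKM in KO and 0.765 ± 0.154 FPKM in WT, and rose in KO (log2 change 0.82, SE 0.17, limma adjusted p = 0.00239). Like Prdm9 and Rec114, Gm960 was below 1 FPKM on average in WT and passed the filter only through KO, so it had to differ. Sycp2, an axis core protein, averaged 109.7 ± 17.2 FPKM in EE_KO, 25.2 ± 1.99 FPKM in KO and 95.5 ± 2.81 FPKM in WT (log2 change -1.88 in KO, limma adjusted p = 3.78e-06). Tex19.1, which in mouse promotes break formation, averaged 4.67 ± 0.259 FPKM in EE_KO, 12.4 ± 0.101 FPKM in KO and 4.12 ± 0.862 FPKM in WT (log2 change 1.40 in KO, limma adjusted p = 4.83e-05).

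Among the 6 hotspot and chromatin genes, 5 fell and 1, Hells, rose in KO, a small count that stands beside the 48.1% down and 38% up of all tested genes. Of those that fell, Zcwpw2 was at 0.630 and 0.691 FPKM in KO. It passed the filter only through EE_KO and WT and so had to differ. Morc2b, a MORC family gene needed in mouse meiosis, averaged 95.1 ± 1.25 FPKM in EE_KO, 3.18 ± 0.0223 FPKM in KO and 104.9 ± 13.8 FPKM in WT, with a log2 change of -4.66 in KO (SE 0.12, limma adjusted p = 6.03e-08), the largest among the partners. Ewsr1, whose product binds PRDM9, averaged 84.1 ± 1.79 FPKM in EE_KO, 45.5 ± 6.28 FPKM in KO and 94.7 ± 3.76 FPKM in WT (log2 change -1.05, limma adjusted p = 6.08e-05). The Ewsr1 change in KO against WT ran from -1.19 to -0.36 over the alternatives tried. In EE_KO against KO, Ewsr1 was not called after quantile normalization (log2 change 0.26, limma adjusted p = 0.107). Ehmt2, a histone H3K9 methyltransferase, changed by -0.63 (limma adjusted p = 0.000585), but after quantile normalization by 0.10 and with equal FPKM sums by -0.19, neither called.

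Among the 7 genes of break number and end processing, 3 rose and 3 fell in KO, beside 38% of all tested genes up and 48.1% down. Atm, the kinase that limits break number, averaged 1.28 ± 0.103 FPKM in EE_KO, 6.31 ± 0.436 FPKM in KO and 1.11 ± 0.211 FPKM in WT, with a log2 change of 1.79 (limma adjusted p = 1.13e-05). Exo1, an exonuclease of end resection, averaged 1.94 ± 0.121 FPKM in EE_KO, 5.10 ± 0.197 FPKM in KO and 1.80 ± 0.00116 FPKM in WT, and rose by 1.12 in KO (limma adjusted p = 0.000107). Nbn, of the MRE11 complex that releases SPO11 from break ends, averaged 15.3 ± 0.234 FPKM in EE_KO, 6.34 ± 0.608 FPKM in KO and 16.1 ± 3.15 FPKM in WT (log2 change -1.21, limma adjusted p = 0.000110).

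**Figure D5:**
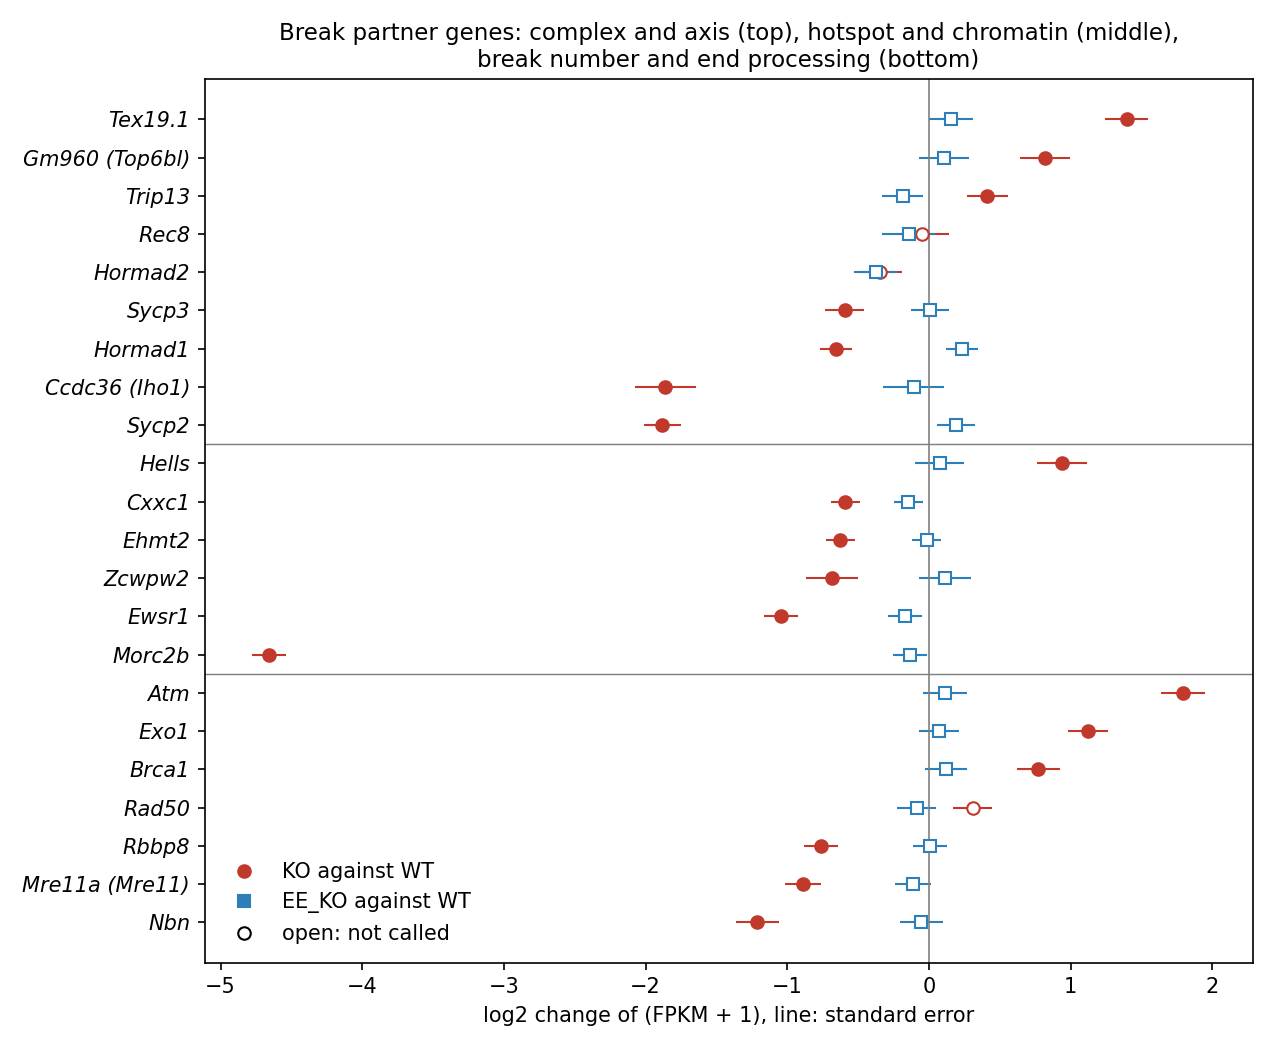
Log2 change of the 22 partner genes by group, in KO against WT (circles) and EE_KO against WT (squares), on the log2(FPKM + 1) scale, with lines for limma's SE and open symbols for genes not called. In KO against WT the genes of each group lie on both sides of 0, with Morc2b lowest at -4.66, and in EE_KO against WT they lie between -0.38 and 0.23.

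The next step of recombination, strand exchange, was set beside break formation through 14 genes. In KO against WT 4 rose, 6 fell and 4 were not called, beside 38% of all tested genes up and 48.1% down, with a median log2 change of -0.41 against -0.29 over all genes. In EE_KO against KO 7 rose and 4 fell, beside 47.8% up and 37.8% down, and in EE_KO against WT none was called by limma, nor at an unadjusted p below 0.05. Psmc3ip, the HOP2 protein that stimulates DMC1, averaged 60.7 ± 3.03 FPKM in EE_KO, 5.29 ± 0.896 FPKM in KO and 69.9 ± 5.30 FPKM in WT (log2 change -3.50 in KO, limma adjusted p = 1.90e-07). The BRME1 gene 4930432K21Rik, whose product binds the BRCA2 partner HSF2BP, averaged 37.7 ± 1.86 FPKM in EE_KO, 3.90 ± 0.342 FPKM in KO and 41.3 ± 5.52 FPKM in WT (log2 change -3.11 in KO, limma adjusted p = 3.19e-07). The difference between this list and the break genes was not tested.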

How the data were processed

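Cells labelled as pachytene were purified in 3 groups of 2 libraries. The values are FPKM, made by the authors and deposited for 54532 genes per library, per the file headers. The submitters' processing notes name GRCm38 and mm10, while the aligner, the counter and the use of strand are unknown here. Symbols, exon lengths and positions came from GENCODE M21 (54495 genes matched). FPKM times exon length gave whole reads for 96.8 to 97.0% of values (tolerance 0.01), and a single read on a 2 kb transcript is worth 0.0278 to 0.0357 FPKM.

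The filter was a mean of at least 1 FPKM over 6 libraries, which left 15368 genes, after leaving out 533 short RNA genes and 6 lower entries of repeated symbols. All libraries entered 1 model without a replicate block, fitted to log2(FPKM + 1) by limma 3.58.1 in R 4.3.3 with its mean-variance trend. The pseudocount shrinks changes of low genes. The procedure was tested on data simulated from the WT means, with few genes changed and as many raised as lowered. That setting does not cover a change of most genes, as in KO here. Named are the 7 genes, the MAPS gene, Ccdc36 and Gm960, the 3 partners with the smallest p in each of 3 groups, 2 strand exchange genes and 2 nearest genes per member, of which 2 are not reported here. Members and lists were chosen with earlier results of these data known. The alternatives tried were a pseudocount of 0.1 or 0.5, at least 5 FPKM or no filter, TPM and quantile scaling, the compared groups only, a replicate block, no trend, an adjusted p below 0.1, short RNAs kept, voom on recovered reads, and each library left out. Added after seeing the data were voom without a filter and the count of members called by voom. Tables and figures used matplotlib 3.10.9, scipy 1.17.1, numpy 2.4.6 and pandas 2.3.3 under Python 3.11.15.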

Additional observations from a re-analysis of the deposited data

How the results depend on the processing

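With 2 libraries per group and few reads on Mei4, Rec114 and Prdm9, small differences could not be detected. In KO against WT 5 members were called, and so many again in EE_KO against KO, under most alternatives. With a minimum mean of 5 FPKM, 2 members were left and 2 were called in each of these comparisons. Without 1 library, 4 to 5 were called in KO against WT, where Zcwpw1 was lost without KO replicate 2, and 5 in EE_KO against KO. Mei1 was also called in EE_KO against KO by TPM scaling (-0.58) and voom (-0.59), and in KO against WT, still not called, it was 0.42 and 0.41 under these. No replicate block was part of the model, since same-numbered libraries did not deviate together (r = 0.0909 between KO and EE_KO, -0.0307 between KO and WT and 0.0540 between EE_KO and WT), and with the replicate block 5, 5 and 0 members were called. The log2 changes that reversed were small or not called, apart from Ehmt2 in both comparisons with KO. Under quantile normalization they were 0.10 for Ehmt2 in KO against WT, -0.046 for Ehmt2 in EE_KO against KO and, in EE_KO against WT, 0.055 for Ehmt2 and -0.032 for Prdm9. In EE_KO against WT, Ehmt2 was 0.018 with TPM, 0.00983 with voom and 0.00905 with voom without a filter. With each library left out, Mei1 ran over -0.058 to 0.081 in KO against WT. In EE_KO against WT the ranges were -0.059 to 0.11 for Prdm9, -0.094 to 0.061 for Ehmt2, -0.25 to 0.037 for Ccdc36, -0.066 to 0.28 for Gm960, -0.016 to 0.33 for Tex19.1, -0.24 to 0.14 for Nbn and -0.26 to 0.012 for 4930432K21Rik. The causes were not tested.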
